A study of Arabidopsis thaliana with 8 samples.

Results

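The comparison described here sets the 2 arrays of LEC2-GR seedlings given dexamethasone for 1 h against the 2 arrays of wild-type seedlings given dexamethasone for 4 h. These 4 arrays were chosen by their titles out of 8 in the series, and all 22746 probe sets that are not controls were compared. The LEC2-GR seedlings were of accession Ws-0, carried 35S:LEC2-GR, were 8 days old and had 1 h of dexamethasone. The wild-type seedlings were Ws-0 without the transgene, also 8 days old, and had 4 h of dexamethasone. The other groups of the series served to sort the differences: the same line after 4 h of dexamethasone, and the same line with no treatment, called uninduced below. Each group had 2 biological replicates, 1 Affymetrix ATH1 array each, hybridised with RNA of whole seedlings, and the labels do not say how many independent transgenic lines were used.

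LEAFY COTYLEDON2 (LEC2) is a transcription factor with a B3 DNA-binding domain that acts in embryos, where it promotes seed maturation, the build-up of storage protein and oil, and embryonic cell fate. In the fusion, the glucocorticoid receptor (GR) domain that binds hormone keeps the factor inactive until the steroid dexamethasone is given. The 35S promoter is active in most plant tissues, so the fusion is present in cells of the seedling where LEC2 normally is not. In whole seedlings, fewer cells of a type and less RNA per cell cannot be told apart.

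The design limits every value below. The transgene and the length of dexamethasone treatment differ together between both groups, and neither a wild type at 1 h nor an untreated wild type was analysed here. A gene high at 1 h in the line may therefore have been high at 1 h in wild type too, and these cannot be told apart. LEC2 itself is named by none of the annotated probe sets, so the labels could not be checked against its transcript. The records of the instrument run place the wild-type and uninduced arrays at scan positions 1 to 4, and the 1 h and 4 h arrays of the line at positions 5 to 8. The hybridisation field is filled for the first set and empty for the second. The wash module numbers start again at 1 with the first 1 h array, and the record of 4 h replicate 2 carries a remark on high background. If these mark 2 runs, which is inferred and not stated, run and group cannot be told apart in 1 h against wild type, 1 h against uninduced and 4 h against wild type, while 1 h against 4 h of the line lies within 1 run, and so does uninduced against wild type.

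The 2 arrays of each group correlated at 0.970 to 0.978 across probe sets, the 1 h arrays at 0.970 and the wild-type arrays at 0.978. Median intensity was 170.1 to 191.1 on the 8 arrays. The GAPDH control gave a 3′/5′ ratio, which reads RNA integrity, of 3.37 and 2.32 on the 1 h arrays, against 2.74 and 2.66 on the wild-type arrays. Its part in the results was not tested. Values are MAS5 intensities on a linear scale, and differences are log2(intensity + 45), the 1 h line minus wild type unless another pair is named, with the standard error (SE) and the Benjamini-Hochberg adjusted p of limma. A probe set was called at an adjusted p under 0.05. With 2 arrays a group, precision is limited by their number. Genes are named by the annotation's symbol, or by the locus where it gives no symbol, and a bare locus carries no description in the sources used.

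At 1 h, 1087 probe sets were called higher in the line than in wild type (4.78% of those tested) and 1178 were called lower (5.18%). Of these, 502 were at least 2-fold higher (2.21%) and 499 at least 2-fold lower (2.19%), while 80 were at least 4-fold higher (0.352%) and 38 at least 4-fold lower (0.167%). The count called either way was 2265 (9.96%), and 5046 had an unadjusted p under 0.05 (22.2%). The count called was 987 without wild-type replicate 1, 858 without wild-type replicate 2, 1198 without 1 h replicate 1 and 1795 without 1 h replicate 2. Of the calls left in those 4 fits, 956, 840, 1115 and 1455 were among the original 2265.

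The at least 2-fold differences were sorted by the other groups. An early line-specific rise was also called higher than in the uninduced line and, at 4 h, higher in the line than in wild type. Every comparison that defines this class sets arrays at scan positions 5 to 8 against arrays at positions 1 to 4. If these mark 2 runs, run and group cannot be told apart in the early line-specific rises or falls. A short-lived rise was called higher than in the uninduced line and higher than in the line at 4 h, with no call between line and wild type at 4 h. Neither this class nor its mirror requires a return to the uninduced level, and 4 h against uninduced was not tested. Both 4 h arrays were still above both uninduced arrays in LTI30, BGLU40, XTH18, tny, PUB22, SRC2, ARL and AT2G34930. This did not hold in EXLA1, WRKY22, CML38 and VPS2.1, the other short-lived rises with a symbol. In the short-lived falls EXPA8 and AT4G14270 both 4 h arrays were still below both uninduced arrays. The remaining classes are defined where they are described. A further 119 higher and 106 lower probe sets fell in no class (0.523% and 0.466%). These comparisons share arrays, so membership of a class is a description and its count has no test of its own. Among all probe sets, 5.22% were called higher and 3.9% lower at 1 h than uninduced, and 4.78% higher and 5.33% lower at 1 h than at 4 h. The line at 4 h was called above wild type in 1.82% and below it in 1.5%, and the uninduced line in 8.15% and 9.63%.

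**Figure D1:**
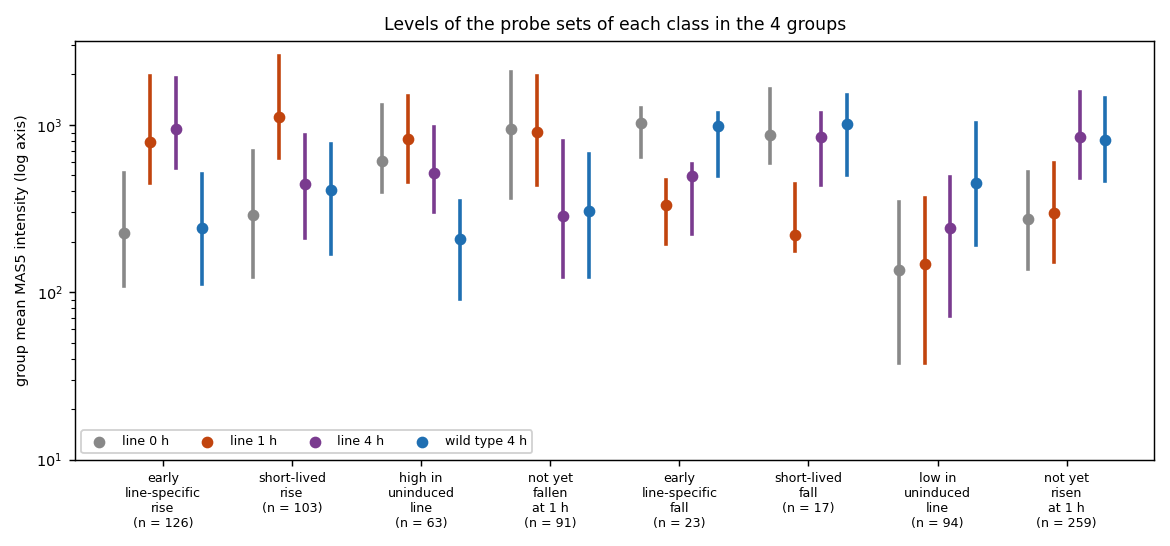
Group mean intensity (log axis) of the probe sets in each class, as the median (point) and the range between the 25th and 75th percentile (bar), for the line at 0, 1 and 4 h and wild type at 4 h. The 126 early line-specific rises have a median of 784.6 in the line at 1 h and 242.2 in wild type, and the 103 short-lived rises have 1117 at 1 h against 445.6 in the line at 4 h.

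Early line-specific rises numbered 126 probe sets (0.554% of those tested), 60 of them naming a single gene. Their median intensity was 784.6 in the line at 1 h and 940.0 in the line at 4 h, against 226.6 uninduced and 242.2 in wild type. The median difference between the line at 1 h and at 4 h was 0.01, so at the median the class stood at 1 h where it stood at 4 h, but single members ranged from -3.66 to 1.71. The class held 63 to 108 probe sets when each of the 8 arrays was left out in turn, and 47 of the 126 stayed in it every time. The lowest count was without wild-type replicate 2, with 78 without wild-type replicate 1, 74 without 4 h replicate 1 and 72 without 4 h replicate 2.

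The clearest of these rises was AT5G02230. Its intensity was 7540.5 and 7656 in the line at 1 h, 7109.5 and 8528.1 in the line at 4 h, 504.3 and 533.1 in the uninduced line, and 266.8 and 300.9 in wild type. No array of either dexamethasone-treated line group overlapped an array of the other groups. The difference from wild type was 4.54 (SE 0.12, adjusted p = 2.6e-08). Uninduced, the line was already 0.78 above wild type (adjusted p = 0.0013), and 1 h exceeded uninduced by 3.76. The difference from the line at 4 h was -0.04 (adjusted p = 0.92), so the level at 1 h was not distinguishable from the level at 4 h.

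HYH, a bZIP transcription factor and homolog of the light-signalling factor HY5, had 1442.2 and 1453.5 in the line at 1 h and 1084 and 1005.9 at 4 h. It had 150.6 and 211.9 in the uninduced line and 164.4 and 188.4 in wild type. All 4 arrays of the treated line were high and the other 4 low, with a difference at 1 h of 2.76 (SE 0.17, adjusted p = 1.2e-05) from wild type and of 2.74 from the uninduced line. AT4G30060 had 918.3 and 1345.9 in the line at 1 h, 874.5 and 918.9 at 4 h, 99.6 and 113.1 uninduced and 134.1 and 106.7 in wild type, a difference of 2.81 (SE 0.21, adjusted p = 3.2e-05). AT1G20070 had 1322.9 and 1105.8 in the line at 1 h, against 204.8 and 146.4 in wild type (2.52, SE 0.21, adjusted p = 6.1e-05). Both loci followed the pattern of HYH, with 1 h and 4 h levels of the line close to each other.

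AT5G46230 had 753.4 and 795.8 in the line at 1 h against 166.3 and 158.9 in wild type, a difference of 1.98 (SE 0.18). AT5G55620 started from a higher level, with 7413.6 and 8466 in the line at 1 h against 1840 and 1781.4 in wild type (2.1, SE 0.15). AR781 had 1358 and 1142.3 in the line at 1 h, against 382 and 247.9 in wild type and 152.6 and 101.8 in the uninduced line. For AR781 the uninduced line lay below wild type (-1.05, adjusted p = 0.0058), so the difference from the uninduced line, 2.92, was larger than that from wild type, 1.87. All 8 genes shown in the plot of early rises stayed in the class whichever of the 8 arrays was left out.

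**Figure D2:**
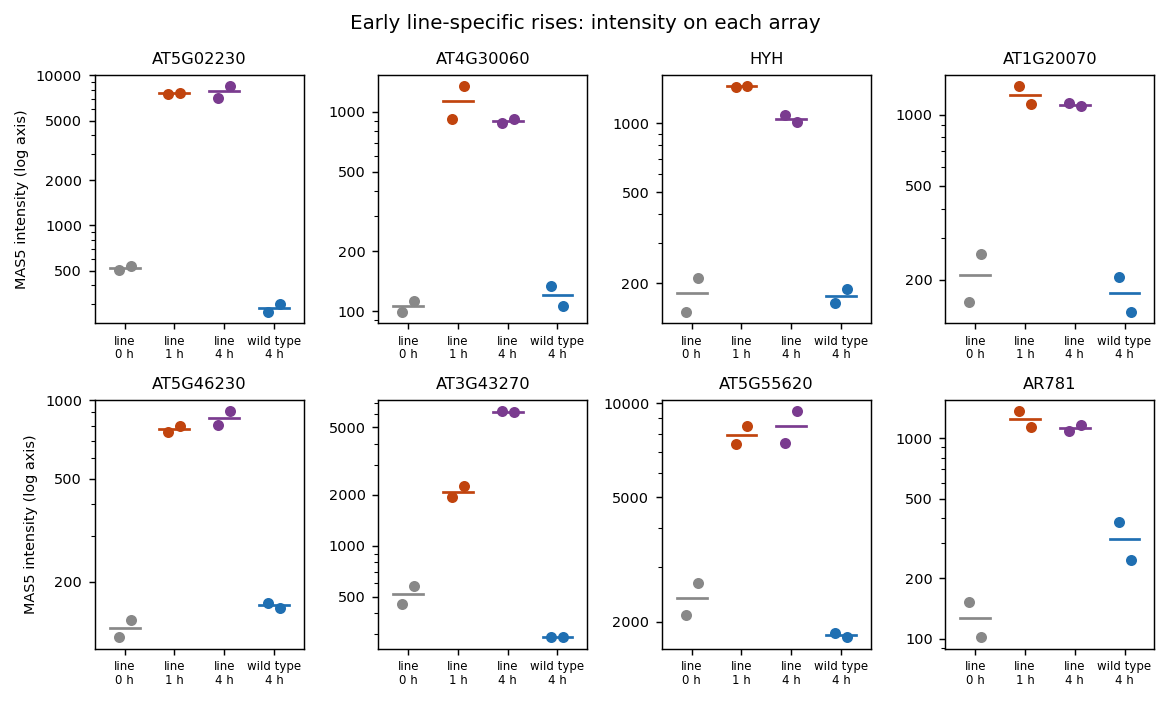
Intensity (log axis) on each array for the 8 early line-specific rises with the largest smallest difference among the defining comparisons, for the line at 0, 1 and 4 h and wild type at 4 h; points are arrays and lines are means of 2. In all 8 genes both 1 h arrays lie above both wild-type and both uninduced arrays, and AT3G43270 is the gene called lower at 1 h than at 4 h.

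Not all early rises were complete at 1 h. AT3G43270 had 1930.9 and 2241.4 in the line at 1 h, 6211.5 and 6191 at 4 h, 453.7 and 581.9 uninduced, and 289.4 and 288.6 in wild type. Its difference from wild type was 2.67 at 1 h (SE 0.14, adjusted p = 3.1e-06) and 4.23 at 4 h, and 1 h was below 4 h (-1.56, adjusted p = 0.00011). Uninduced, it was already 0.74 above wild type (adjusted p = 0.0035), and 1 h exceeded uninduced by 1.93. AT2G39980 went the other way. It had 5859.2 and 6357.4 in the line at 1 h, 2084.1 and 1683 at 4 h, 640.3 and 548.6 uninduced, and 714.1 and 610.8 in wild type. It was 3.12 above wild type at 1 h (SE 0.14, adjusted p = 1.3e-06) and 1.44 at 4 h, with 1 h above 4 h by 1.68 (adjusted p = 8.8e-05), so part of its 1 h level was gone by 4 h while a call against wild type remained.

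Of the 60 early rises with a single gene, 13 carry a symbol, and 7 of these stayed in the class whichever array was left out: HYH, APK1A, ULT1, CW14, AR781, SIM and YUC2. This listing by symbol was made after the values were seen. ULT1 (ULTRAPETALA1), a regulator of shoot and floral meristem size, had 2121.8 and 1941.4 in the line at 1 h and 2698.7 and 2677.7 at 4 h, against 556.4 and 772.9 in the uninduced line and 379.8 and 467.3 in wild type. The difference from wild type was 2.15 (SE 0.16, adjusted p = 3.0e-05), and all 4 treated-line arrays were above the other 4. Uninduced, ULT1 was already 0.59 above wild type (adjusted p = 0.027), and 1 h exceeded uninduced by 1.56. SIM (SIAMESE), an inhibitor of cyclin-dependent kinases that promotes endoreduplication in trichomes, had 1095.8 and 1104.2 at 1 h and 1274.2 and 1556 at 4 h, against 560.1 and 624.9 uninduced and 316.2 and 316.7 in wild type. It was 1.66 above wild type (SE 0.14, adjusted p = 6.5e-05), but the uninduced line was itself 0.82 above wild type (adjusted p = 0.0024), and the difference from the uninduced line was 0.85.

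APK1A, a protein kinase, had 2571.7 and 2539.2 in the line at 1 h, 1054.5 and 1132 at 4 h, 891.4 and 948.2 uninduced and 493.8 and 510.8 in wild type. It was 2.25 above wild type (SE 0.12, adjusted p = 3.1e-06) and 1.19 above the line at 4 h (adjusted p = 0.00019), so its 1 h arrays stood above all the others. Uninduced, APK1A was already 0.82 above wild type (adjusted p = 0.00069), beside 1.06 in the line at 4 h. From uninduced to 1 h the difference was 1.43. CW14 had 709.1 and 1084.9 at 1 h and 1187.2 and 910.4 at 4 h, against 190.6 and 148.8 in wild type (2.11, SE 0.23, adjusted p = 0.00025). It had 281.3 and 354.9 uninduced, already 0.76 above wild type (adjusted p = 0.041), and 1 h exceeded uninduced by 1.35. The symbol-bearing members that left the class without at least 1 array, other than those described with the seed and auxin genes, were PME61, POL and PRA1.B4. PME61, a pectin methylesterase, which modifies cell wall pectin, had 371.4 and 386.3 in the line at 1 h against 37.3 and 63.3 in wild type (2.17). POL (POLTERGEIST), a protein phosphatase that acts in stem cell signalling, had 748.9 and 679.8 against 337.4 and 296.9 (1.07), with an adjusted p of up to 0.079 when 1 of the 4 arrays was left out. PRA1.B4 had 1320.7 and 1487 against 707 and 606.7 (1.05), with an adjusted p of up to 0.053.

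Seed maturation genes are the targets for which LEC2 is best known. Their counts at 1 h are read beside the 4.78% of all probe sets called higher and the 5.18% called lower. None of the 5 measured seed storage protein genes was called in either direction, with differences from -0.58 to 0.89 and a median of -0.05, beside a median of -0.00 over all probe sets. AT4G36700 of that list had 7.3 and 40.4 in the line at 1 h and 7.6 and 6.4 in wild type, but 238.5 and 281.9 in the line at 4 h. The 1 h level was below the 4 h level (-2.19, adjusted p = 0.0015). PAP85, a vicilin-type storage protein, had 99.2 and 25 in the line at 1 h against 7.8 and 10.4 in wild type, and its arrays at 1 h were too far apart for a call (0.89, adjusted p = 0.20). The other 3, AT1G03890, AT2G18540 and AT2G28490, had between 2.5 and 19.6 in the line at 1 h against between 8.5 and 47.1 in wild type.

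Called higher were 1 of 4 oil body genes and 1 of 10 late embryogenesis abundant (LEA) genes, beside 4.78% of all probe sets. OLEO3, an oleosin, a protein that coats oil bodies, had 456.9 and 439.3 in the line at 1 h, 2647.2 and 2623.3 at 4 h, 252.6 and 138.7 uninduced and 40.4 and 80.3 in wild type. It rose by 2.25 against wild type (SE 0.25, adjusted p = 0.00033) and stood below its own 4 h level (-2.44, adjusted p = 0.00024). The uninduced line was already 1.18 above wild type (adjusted p = 0.0078), and the call of 1 h above uninduced (1.08, adjusted p = 0.022) did not hold without uninduced replicate 2 (adjusted p = 0.15), without 1 h replicate 1 (0.12), without 1 h replicate 2 (0.086), without 4 h replicate 1 (0.056) and without 4 h replicate 2 (0.056). The other oil body loci, AT3G01570, AT3G18570 and AT2G25890, had between 6.8 and 21.5 in the line at 1 h against between 3.1 and 96.2 in wild type, none called. LEA18 had 211.5 and 191 in the line at 1 h, 110.8 and 129 at 4 h, 52.2 and 48.7 uninduced and 25.3 and 22.7 in wild type (1.83, SE 0.29, adjusted p = 0.0023). It left the class of early rises whichever array was left out, through its smaller differences from the uninduced line or at 4 h, while the call against wild type held (adjusted p 0.0137 to 0.0297).

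Of 8 other seed maturation genes, AT3G54940 was called higher and PDF2.1 lower. AT3G54940 had 190.8 and 367.8 in the line at 1 h, 2833.5 and 3789.4 at 4 h, 57.9 and 49.5 uninduced and 8.3 and 15.7 in wild type. It rose by 2.46 against wild type (SE 0.29, adjusted p = 0.00046) and by 1.66 against the uninduced line (adjusted p = 0.0040), and was below its 4 h level (-3.41). Its 4 groups did not overlap, in the order wild type, uninduced, 1 h and 4 h. PDF2.1, a plant defensin, had 4.8 and 48.1 in the line at 1 h against 204.5 and 194.7 in wild type and 404.6 and 429.4 in the line at 4 h, a difference of -1.84 from wild type. That call was lost without wild-type replicate 1 (adjusted p = 0.068), wild-type replicate 2 (0.064) or 1 h replicate 1 (0.055). The remaining 6 were not called, DELTA-VPE with the largest difference among them (0.88, adjusted p = 0.16).

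Of 4 measured embryo and seed maturation transcription factors, EEL, a bZIP factor of abscisic acid signalling in embryos, was called higher, with 309.1 and 270.2 in the line at 1 h against 90.8 and 83.8 in wild type (1.34, adjusted p = 0.021). Leaving out any 1 of the 4 arrays ended the call (adjusted p 0.0678 to 0.133). BZIP53 (0.05), AGL18 (-0.09) and BBM (-0.07) were not called, and BBM lay between 2.5 and 8.7 on all 8 arrays. None of 4 fatty acid synthesis genes was called: AT5G16240 differed by 0.72 (adjusted p = 0.14), AT3G02630 by -0.07, FaTA, an acyl-ACP thioesterase, by -0.16, and FATB, another thioesterase, by -0.28. AT3G02630 stood at 1093.4 and 1176.6 in the line at 1 h and at 2660.8 and 2779.4 in the line at 4 h, lower at 1 h (-1.23, adjusted p = 0.00038).

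**Figure D3:**
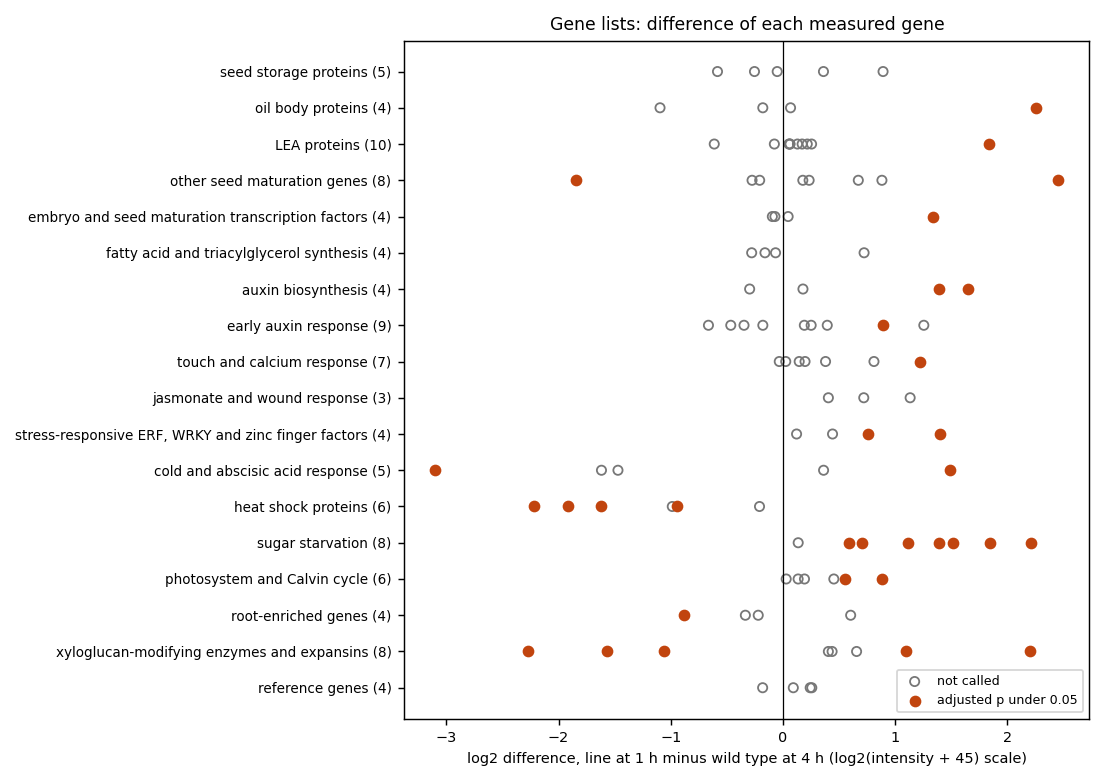
Difference between the line at 1 h and wild type at 4 h, on the log2(intensity + 45) scale, for every measured gene of each list with 3 or more measured genes; filled points had an adjusted p under 0.05 over all 22746 probe sets. Sugar starvation genes lie to the right (7 of 8 called), heat shock genes to the left (4 of 6 called), and no seed storage gene was called. Over all probe sets, 4.78% were called higher and 5.18% lower. The lists were chosen with earlier results of these data known.

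Auxin biosynthesis is carried out in part by the YUCCA flavin monooxygenases. Of 4 measured members, YUC2 and YUC4 were called higher, beside 4.78% of all probe sets. YUC2 had 460.1 and 410.3 in the line at 1 h, 556.3 and 561.8 at 4 h, 179.3 and 172.6 uninduced and 137.1 and 139.3 in wild type, a rise of 1.39 against wild type (SE 0.19, adjusted p = 0.0012) and of 1.12 against the uninduced line (adjusted p = 0.0037). It stayed in the class of early rises whichever array was left out. YUC4 had 190.8 and 167.2 at 1 h, 340.1 and 374.5 at 4 h, 48.4 and 34.2 uninduced and 9.1 and 48.7 in wild type, a rise of 1.65 (SE 0.33, adjusted p = 0.0091). Its call was lost without wild-type replicate 1 (adjusted p = 0.090), the lower of the pair, or without 1 h replicate 1 (0.069). YUC6 (-0.30) and YUC11 (0.18) were not called.

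Among 9 early auxin response genes, 1 was called higher and none lower, beside 4.78% and 5.18% of all probe sets. It was GH3.3, which conjugates auxin to amino acids. GH3.3 had 1281.6 and 1544.8 in the line at 1 h against 832.5 and 648 in wild type (0.90, SE 0.18, adjusted p = 0.010). The call was lost without wild-type replicate 2 or without 1 h replicate 2 (adjusted p 0.0312 to 0.123 over the 4 arrays). The Aux/IAA repressor gene IAA30 differed by 1.26 and was not called (adjusted p = 0.064). None of 7 measured IAA genes was called. The cytokinin response regulators ARR15 (-0.80, adjusted p = 0.097) and RR16 (-0.09) were not called.

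Short-lived rises numbered 103 probe sets (0.453%), 57 of them naming a single gene. The members had a median intensity of 1117 in the line at 1 h and 445.6 in the line at 4 h, against 290.2 uninduced and 405.6 in wild type. Leaving out each array in turn gave 58 to 131 probe sets, and 31 of the 103 stayed in the class every time. The count was 58 without 1 h replicate 1, 68 without 4 h replicate 1 and 65 without 4 h replicate 2.

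XTH18, a xyloglucan endotransglucosylase/hydrolase that cuts and rejoins the xyloglucan of growing cell walls, had 3650.7 and 4809.4 in the line at 1 h, 1323.3 and 1094.6 at 4 h, 684.4 and 790.4 uninduced and 891.1 and 860.7 in wild type. Only the 1 h arrays were high, and they did not overlap any other. The difference from wild type was 2.2 (SE 0.16, adjusted p = 2.2e-05) and from the line at 4 h 1.76 (adjusted p = 9.8e-05). AT2G34930 had 2958.4 and 2756.2 at 1 h and 697.1 and 770.2 at 4 h, against 246.6 and 334.1 uninduced and 660.4 and 484.1 in wild type (2.25, SE 0.18, adjusted p = 3.8e-05). For that locus the uninduced line was below wild type (-0.88, adjusted p = 0.0055).

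AT5G56980 had 1082.2 and 975.1 in the line at 1 h against 164.7 and 205.7 in wild type (2.23, SE 0.26, adjusted p = 0.00040), and 241.2 and 189 in the line at 4 h. AT4G18650 had 582.9 and 653.9 against 98.6 and 80.7 (2.30, SE 0.30, adjusted p = 0.00074). AT2G36630 had 711.5 and 851.8 against 268.9 and 166.1 (1.68, SE 0.25, adjusted p = 0.0018). These 3 stayed in the class whichever array was left out, and in each the 2 arrays at 1 h were above the other 6.

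AT1G15010 had 3485.8 and 1767.4 in the line at 1 h, against 750 and 327.6 in wild type, a difference of 2.22 (SE 0.37, adjusted p = 0.0036). Its adjusted p was up to 0.0492 with 1 of the 4 arrays left out. AT2G02630 was near the bottom of the scale on 6 arrays, with 332.5 and 137.8 in the line at 1 h, 29.6 and 11.7 at 4 h, 7.6 and 9 uninduced and 10.2 and 13.5 in wild type (2.21, SE 0.36, adjusted p = 0.0030). It left the class without 4 h replicate 2, since 1 h against 4 h then had an adjusted p of 0.059. AT2G42140 had 216.1 and 213.7 at 1 h against 19.4 and 44.9 in wild type (1.77, adjusted p = 0.011). That call was lost without wild-type replicate 1 (adjusted p = 0.11) or 1 h replicate 1 (0.062), and at a pseudocount of 1 (0.14).

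**Figure D4:**
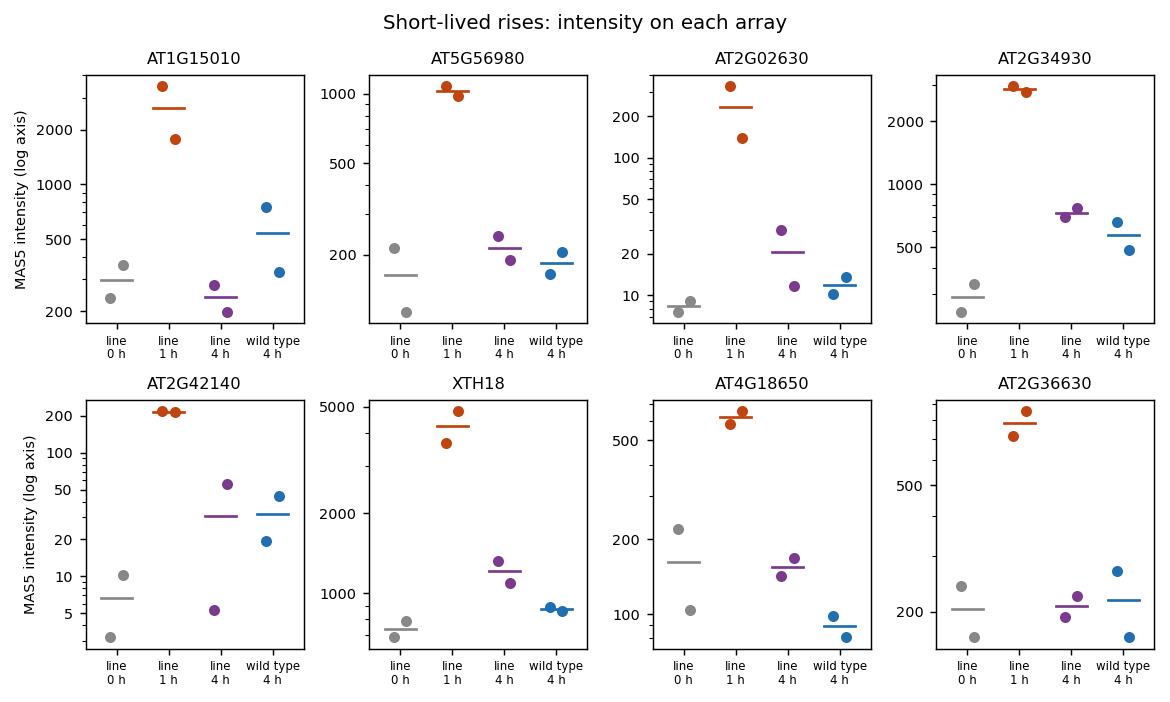
Intensity (log axis) on each array for the 8 short-lived rises with the largest smallest difference among the defining comparisons, for the line at 0, 1 and 4 h and wild type at 4 h; points are arrays and lines are means of 2. The 1 h arrays stand above the other 6 in every panel; XTH18 has 3650.7 and 4809.4 at 1 h and at most 1323.3 elsewhere.

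Of the short-lived rises 11 carry a symbol, counted after the values were seen, and 3 of these 11 stayed in the class whichever array was left out: XTH18, WRKY22 and SRC2. WRKY22, a transcription factor of the WRKY family that acts in immune and stress signalling, had 1360.5 and 873.8 in the line at 1 h, 408.9 and 433 at 4 h, 403.9 and 432.9 uninduced and 433.1 and 343.8 in wild type. The other 6 arrays lay within 343.8 and 433.1, and the difference from wild type was 1.40 (SE 0.21, adjusted p = 0.0017). It was the only one called of 7 measured WRKY genes, beside 4.78% of all probe sets called higher. SRC2 had 8915.8 and 6669.3 at 1 h, against 3385.1 and 3703.8 at 4 h and 3612.3 and 2959 in wild type (1.23, SE 0.16, adjusted p = 0.00069).

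The AP2/ERF factor TINY (tny), of a family of regulators of stress and hormone responses, had 1611.9 and 1106.4 in the line at 1 h, 573.2 and 655.7 at 4 h, 263.5 and 223 uninduced and 302.7 and 472.7 in wild type (1.70, SE 0.23, adjusted p = 0.00093). Its 1 h against 4 h call (1.07, adjusted p = 0.013) was lost without 1 h replicate 1 (0.13), 4 h replicate 1 (0.10) or 4 h replicate 2 (0.061). Its relative TINY2 had 205.7 and 101.3 against 112.5 and 65.2 in wild type and was not called (0.54, adjusted p = 0.50). The ubiquitin ligase PUB22, a negative regulator of immune and drought responses, had 893.8 and 763.4 at 1 h against 418.3 and 244.9 in wild type (1.25, adjusted p = 0.0058). That call was lost without wild-type replicate 2 (adjusted p = 0.064) or 1 h replicate 1 (0.063). PUB23, its close relative, had 502.9 and 671 against 383.4 and 229.1 (0.87, adjusted p = 0.042), with an adjusted p of 0.0352 to 0.309 over the 4 left-out arrays.

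CML38, a calmodulin-like calcium sensor induced by touch and wounding, had 570.7 and 549.8 in the line at 1 h, 183.8 and 115 at 4 h, 160.7 and 65.7 uninduced and 252.6 and 180.6 in wild type. It was called against wild type (1.22, adjusted p = 0.036), a call that each of the 4 left-out arrays ended (adjusted p 0.102 to 0.244), and was 2.00 above the uninduced line (adjusted p = 0.0024). Of 7 touch and calcium genes it was the only one called against wild type (4.78% of all probe sets were called higher). Against the uninduced line, 4 of the 7 were called higher (5.22% of all probe sets were). EXLA1, an expansin-like protein, had 2372.1 and 3322.1 against 967.8 and 595.9 in wild type (1.82, adjusted p = 0.0018), and BGLU40, a beta-glucosidase, had 1668.6 and 1590.1 against 529.2 and 444.3 (1.66, adjusted p = 0.0018). ARL (ARGOS-like), which promotes cell expansion, had 4315 and 4744.9 against 2256 and 1683.5 (1.20, adjusted p = 0.0011), and VPS2.1, a subunit of the ESCRT membrane-sorting machinery, had 2228.4 and 2198.8 against 1121.2 and 947.6 (1.07, adjusted p = 0.00042). Each of these 4 kept its call against wild type with any 1 of the 4 arrays left out.

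For several stress genes the wild type at 4 h was itself far above the uninduced line. The zinc finger factor STZ (ZAT10) had 1438.2 and 1096.9 in the line at 1 h, 782.1 and 925.5 at 4 h, 87.9 and 141.7 uninduced and 788.5 and 661.5 in wild type. It was 3.05 above the uninduced line (adjusted p = 1.1e-05) but 0.76 above wild type (adjusted p = 0.039), a call lost in 5 of the left-out fits (adjusted p 0.0481 to 0.262 over the 4 arrays compared). WRKY6 (0.44) and WRKY53 (0.12) were not called. LTI30, a dehydrin of cold and drought responses, had 8234.5 and 4616.9 at 1 h, 1862.6 and 1242.2 at 4 h, 455.2 and 407 uninduced and 2476.7 and 1883.2 in wild type. It was 1.49 above wild type (SE 0.26, adjusted p = 0.0041; 0.064 without wild-type replicate 2) and 1.99 above its own 4 h level (adjusted p = 0.00078).

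The 3 measured jasmonate and wound response genes were not called against wild type. AT5G05600 had 4673.5 and 2004.2 in the line at 1 h, 845.5 and 1202.8 at 4 h, 160.8 and 83.4 uninduced and 1928.9 and 1756.9 in wild type (0.72, adjusted p = 0.24). AT2G38240 had 1885.7 and 749.8 at 1 h against 719.7 and 371.1 in wild type (1.13, adjusted p = 0.085), and JRG21 differed by 0.41 (adjusted p = 0.61). Against the uninduced line the first was higher by 4.26 (adjusted p = 2.5e-05) and the second by 3.75 (adjusted p = 9.8e-05). For both genes the uninduced line was also below wild type, with a difference of -3.54 for AT5G05600 and of -2.61 for AT2G38240.

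Falls in the line were fewer. Short-lived falls, the mirror of the short-lived rises, numbered 17 probe sets (0.0747%), 8 with a single gene. At the median they read 218.5 in the line at 1 h and 843.5 at 4 h, against 868.5 uninduced and 1009 in wild type. Leaving out an array gave 11 to 32 of them: 11 without wild-type replicate 2 or uninduced replicate 2 and 32 without 1 h replicate 2. AT1G78460 had 187.7 and 163 in the line at 1 h, 845.2 and 782.4 at 4 h, 990.6 and 697.3 uninduced and 858.8 and 1247.3 in wild type. Only the 1 h arrays were low, with a difference of -2.30 from wild type (SE 0.21, adjusted p = 7.9e-05) and of -1.96 from 4 h, and it stayed in the class in every left-out fit.

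EXPA8, an expansin that loosens cell walls, had 147.6 and 135.3 in the line at 1 h, 379.2 and 749.6 at 4 h, 1688.7 and 1593.3 uninduced and 861.2 and 849.2 in wild type (-2.27, SE 0.24, adjusted p = 0.00022). Both 4 h arrays were still below both uninduced arrays. Without 4 h replicate 2, the higher of the 4 h pair, the line at 4 h was also called below wild type (adjusted p = 0.023) and EXPA8 left the class. AT4G14270 had 488.8 and 404.9 at 1 h against 1077 and 1267.2 in wild type and 1332.6 and 966.1 in the line at 4 h (-1.31, SE 0.17, adjusted p = 0.00089). Uninduced it had 2689.7 and 2264.3, which was 1.05 above wild type (adjusted p = 0.0016). Its 4 h arrays were thus still below both uninduced arrays. AT1G23670 was near the bottom of the scale, with 3.2 and 7.8 against 65.8 and 64 (-1.12, adjusted p = 0.037), and leaving out any 1 of the 4 arrays ended that call (adjusted p 0.0922 to 0.167).

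Early line-specific falls numbered 23 probe sets (0.101%), 9 with a single gene. None of the 23 stayed in the class through every left-out array, and the count ranged from 4 without wild-type replicate 2 to 24. It was 5 without wild-type replicate 1, 9 without either 4 h array, 11 without uninduced replicate 1, and 15 without uninduced replicate 2 or 1 h replicate 2. AT5G63180 had 227.1 and 256.4 in the line at 1 h, 381 and 601.7 at 4 h, 1038.5 and 736.7 uninduced and 1110.2 and 1013.4 in wild type (-1.95, SE 0.22, adjusted p = 0.00033). AT4G34220 had 214.3 and 191.6 against 812.8 and 785.4 (-1.77, SE 0.24, adjusted p = 0.0010), AT1G67910 had 265.1 and 270.7 against 769.4 and 907.1 (-1.49, SE 0.15, adjusted p = 0.00018), and AT1G54820 had 89.6 and 92.4 against 332.6 and 347.6 (-1.50, SE 0.27, adjusted p = 0.0047). Uninduced, AT1G67910 had 2326.9 and 2124.4, which was 1.37 above wild type (adjusted p = 0.00012), so wild type at 4 h was also below the uninduced line. In these 4 the 1 h arrays were all below the wild-type arrays, and the call against wild type was lost only for AT1G54820 without wild-type replicate 2 (adjusted p = 0.060). They left the class when line and wild type at 4 h were no longer called, namely with either wild-type array or 4 h replicate 2 left out for AT4G34220 (adjusted p 0.14, 0.13 and 0.13) and AT1G54820 (0.089, 0.11 and 0.087), with either wild-type array or 4 h replicate 1 left out for AT5G63180 (0.19, 0.14 and 0.18), and without wild-type replicate 2 for AT1G67910 (0.052).

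EXGT-A3 (XTH27), another xyloglucan-modifying enzyme, was the only early fall with a symbol. It had 898.1 and 1136.9 in the line at 1 h, 1437.2 and 1207.6 at 4 h, 3668.3 and 3285.6 uninduced and 2416.4 and 2132.4 in wild type, and fell against wild type (-1.13, SE 0.15, adjusted p = 0.00074) and against the uninduced line (-1.74). Wall-modifying genes were called both ways, beside 4.78% of all probe sets called higher and 5.18% called lower. Of 10 measured XTH genes, XTH18 and XTH19 were called higher and XTH20 and EXGT-A3 lower, and of 14 expansins matched by symbol none was called higher and EXPA8, EXPA15 and EXPB3 were called lower. EXLA1, called higher above, is not part of that symbol list. XTH19 had 985 and 1693.4 against 678.3 and 493.7 (1.10, adjusted p 0.0201 to 0.222 over the 4 left-out arrays), and XTH20 had 190.8 and 120.3 against 517.7 and 561.2 (-1.56, adjusted p 0.0103 to 0.0601). EXPA15 had 408.6 and 463 against 1089.6 and 836.5 (-1.06, adjusted p 0.0546 to 0.160), and EXPB3 had 141.8 and 115 against 358.4 and 385.3 (-1.27, adjusted p 0.0292 to 0.0851).

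In another class the uninduced line also differed from wild type. A probe set was counted as high in the uninduced line when the uninduced line was also called above wild type and 1 h against uninduced was not called, and 63 met this (0.277%), 40 of them with a single gene. Median intensity in the class was 823.4 in the line at 1 h, 512.9 at 4 h and 609.2 uninduced, against 206.6 in wild type. Without wild-type replicate 2 the count was 38. The largest difference of the whole comparison among genes with a name, AT1G04660, was of this kind, with 1673.2 and 2238.6 in the line at 1 h, 3274.5 and 4550.3 at 4 h, 965.3 and 1678.8 uninduced and 70 and 14.3 in wild type. The line was 4.58 above wild type at 1 h (SE 0.32, adjusted p = 2.2e-05) and 4.00 above it uninduced, and 1 h against uninduced was 0.59 (adjusted p = 0.34).

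AT5G57785 had 2554.9 and 2246.1 in the line at 1 h and 2353.1 and 2109.3 uninduced, against 244.6 and 273.9 in wild type (3.01, SE 0.12, adjusted p = 6.5e-07), and AT3G23880 had 1184.8 and 1164.7 at 1 h and 1807.6 and 1333.9 uninduced, against 164.2 and 136.2 (2.65, SE 0.17, adjusted p = 1.2e-05). In the line at 4 h AT5G57785 was higher, with 4221.4 and 3980.3, and 1 h was called below 4 h (-0.76, adjusted p = 0.0028). THI2.2, a thionin, a small antimicrobial peptide, had 4993.8 and 2916 at 1 h and 5338.4 and 3052.8 uninduced, against 526.2 and 508.9 in wild type (2.78, SE 0.27, adjusted p = 0.00012). GAT1_2.1, a glutamine amidotransferase, had 387.9 and 659.2 at 1 h and 325.1 and 385.6 uninduced, against 39.7 and 11.5 (3.0, SE 0.29, adjusted p = 0.00013). A second, dimmer probe set of GAT1_2.1 read 24.6 and 33.4 at 1 h and 10.1 and 7.3 in wild type and was not called (0.46, adjusted p = 0.53). On the brighter probe set of each of these genes all 6 arrays of the line lay above both wild-type arrays, whatever the treatment.

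The other symbols in that class were MYBC1, AAH, UBC16, SKP2A, PDF1.4, ndhI and P1R3, listed after the values were seen. AAH, allantoate amidohydrolase, which frees nitrogen from purine breakdown products, had 1723.5 and 1786.8 in the line at 1 h and 1358.9 and 1434.1 uninduced, against 384.9 and 439.9 in wild type (1.98, SE 0.12, adjusted p = 1.2e-05). MYBC1, a MYB-like factor, had 793.1 and 865.3 at 1 h and 639.2 and 553 uninduced, against 233.5 and 97.2 (2.13, SE 0.32, adjusted p = 0.0017). AAH, MYBC1, THI2.2 and GAT1_2.1 stayed in the class whichever array was left out, and the others left it at least once.

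Since that wild type had 4 h of dexamethasone, a difference between untreated plants was not measured, and a change in treated wild type would meet the same definition. The mirror class, low in the uninduced line, held 94 probe sets (0.413%), 48 with a single gene, and 10 of the 94 stayed in it through every left-out array. Leaving out wild-type replicate 1 gave 40, and wild-type replicate 2 gave 31. AT4G16146 had 151.3 and 114.6 in the line at 1 h, 517.8 and 413.6 at 4 h, 99.5 and 130 uninduced and 1136.8 and 1142.3 in wild type (-2.74, SE 0.21, adjusted p = 3.4e-05). Its level in the line at 4 h lay between those of 1 h and wild type, and it left the class without either wild-type array or without 4 h replicate 2, when the call between line and wild type at 4 h was lost (adjusted p 0.11, 0.12 and 0.11). AT5G28520 had 15 and 12 at 1 h, 16.1 and 13 at 4 h, 70.9 and 37.1 uninduced and 331.3 and 168.5 in wild type (-2.28, SE 0.35, adjusted p = 0.0020), and left the class without wild-type replicate 1 or uninduced replicate 2. The serine carboxypeptidase-like gene scpl35 had 648.4 and 863.3 at 1 h and 695.1 and 884.5 uninduced, against 2524.2 and 2230 in wild type (-1.61, SE 0.16, adjusted p = 0.00018), and was the only member with a symbol that never left the class.

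The largest class was of genes not yet risen at 1 h: called lower than in wild type and lower than in the line at 4 h, with no call against the uninduced line and none between line and wild type at 4 h. It held 259 probe sets (1.14%), 134 loci with a single gene. Their median intensity was 297.6 in the line at 1 h and 840.5 at 4 h, against 273.4 uninduced and 814.8 in wild type. The counts were 182 to 303 with an array left out. The medians at 1 h and uninduced were close, as were those of the line at 4 h and wild type. That follows from the definition, which excludes a call in either pair. A difference between uninduced and wild type was not required in this class or its mirror, and 4 h against uninduced was not tested. Among members with a symbol, only AGO7 (-0.66, adjusted p = 0.095) and COR27 (-1.10, adjusted p = 0.055) were not called lower uninduced than in wild type. AT2G41730 had 150.8 and 18.3 in the line at 1 h, 2299.9 and 3059.6 at 4 h, 110.4 and 147.4 uninduced and 2269.3 and 2475.4 in wild type (-4.44, SE 0.39, adjusted p = 7.4e-05). It left the class without 1 h replicate 1, when 1 h was called below uninduced (-1.45, adjusted p = 0.0053). Its probe set is of the kind that may also bind other transcripts. UGT73C1, a glucosyltransferase of hormone and xenobiotic metabolism, had 30.2 and 13.7 at 1 h and 344.1 and 589.7 at 4 h, against 18.3 and 6.5 uninduced and 260.9 and 275 in wild type (-2.24, SE 0.33, adjusted p = 0.0016).

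Of its genes 16 carry a symbol, and 6 of those 16 stayed in it through every left-out array: UGT73C1, RBL, PWD, NRPA2, YAO and NRPA1. NRPA1 and NRPA2 encode the 2 largest subunits of RNA polymerase I, which transcribes ribosomal RNA genes. NRPA2 had 415.2 and 468.3 in the line at 1 h, 1486.9 and 1255.8 at 4 h, 439.9 and 410.1 uninduced and 1404.4 and 1305.4 in wild type (-1.53, SE 0.14, adjusted p = 9.8e-05). NRPA1 had 223 and 214.9 at 1 h and 711.4 and 726.9 at 4 h, against 145.4 and 203.2 uninduced and 570.6 and 526.5 in wild type (-1.17, SE 0.19, adjusted p = 0.0030). YAO, a protein of ribosomal RNA processing, had 269.4 and 379.4 at 1 h against 943.7 and 729.4 in wild type (-1.26, SE 0.19, adjusted p = 0.0020), and IMP4, of the same process in yeast, had 598.7 and 665.7 against 1424.9 and 1267.9 (-1.04, SE 0.14, adjusted p = 0.00083). These 4 were picked out after their values were seen, and no list of such genes was tested. PWD, phosphoglucan water dikinase, an enzyme of starch breakdown, had 501.3 and 403.1 against 1275.9 and 1555.9 (-1.56, SE 0.15, adjusted p = 0.00016). RBL, here locus AT3G55510 (REBELOTE), had 205.3 and 329.4 against 987 and 877.5 (-1.67, SE 0.25, adjusted p = 0.0018).

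Heat shock genes, which encode chaperones, were mostly lower at 1 h than in wild type or in the line at 4 h. This list was chosen with earlier results of these data known, so its counts are a description. Of 6 measured, 4 were called lower in the line at 1 h than in wild type and none higher, with a median of -1.30. Over all probe sets, 5.18% were called lower and 4.78% higher. Against the line at 4 h, 5 of the 6 were called lower (5.33% of all probe sets were). Against the uninduced line, 2 of the 6 were called higher at 1 h and none lower, with a median of 0.76. Over all probe sets, 5.22% were called higher and 3.9% lower than uninduced. The summed intensity of the 6 genes was 5757.7 and 3621.4 in the line at 1 h, 9644.2 and 12732.3 at 4 h, 1591.4 and 1653.8 uninduced and 10978.1 and 8935.9 in wild type. AT5G51440 had 126.9 and 109.5 at 1 h, 722 and 824.7 at 4 h, 60.6 and 90.2 uninduced and 648.2 and 503.2 in wild type (-1.92, SE 0.23, adjusted p = 0.00046). AT1G53540 had 85.7 and 54 at 1 h against 608.6 and 385.5 in wild type (-2.22, adjusted p = 0.0036; 0.061 without wild-type replicate 1). AT2G29500 had 319 and 200.1 against 1060 and 721 (-1.62, adjusted p 0.0195 to 0.0942 over the 4 left-out arrays), and AT3G09440 had 4770.9 and 3030.3 against 8023.8 and 6705.2 (-0.94, adjusted p 0.00379 to 0.112). The last stood 1.60 above the uninduced line at 1 h (adjusted p = 0.00034), part of the way to the wild-type level.

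In 41 probe sets the line at 1 h was between: called above uninduced, and called below both wild type, by at least 2-fold, and the line at 4 h. This count and its mirror were added after the data were seen. The class had medians of 615.5 in the line at 1 h, 1509 at 4 h, 275.2 uninduced and 1646 in wild type. AT4G30650, of the cold and abscisic acid list, had 1042.6 and 508 in the line at 1 h, 3789.7 and 2828.9 at 4 h, 249.5 and 161.7 uninduced and 7157.6 and 6075.7 in wild type (-3.10, SE 0.28, adjusted p = 7.9e-05). AT4G34950 had 480.4 and 409.8 at 1 h, 1473.6 and 1720.7 at 4 h, 74.5 and 149.2 uninduced and 3222 and 3051.3 in wild type (-2.70, SE 0.21, adjusted p = 3.4e-05). In both loci the 4 groups did not overlap. COR15A had 570.6 and 179.7 at 1 h against 1940.7 and 610.6 in wild type and was not called (-1.62, adjusted p = 0.075), nor were COR15B (-1.47, adjusted p = 0.065) or COR47 (0.36), all 3 cold-regulated genes.

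In the mirror, 34 probe sets were called below uninduced and above both wild type, by at least 2-fold, and the line at 4 h, with medians of 1451 in the line at 1 h, 519.1 at 4 h, 3742 uninduced and 459.8 in wild type. Sugar starvation genes, which rise when plants run short of sugar, as at the end of a long night, made up another list. This list was chosen with earlier results of these data known, so its counts are a description. Of 8 measured, 7 were called higher at 1 h than in wild type and none lower, with a median of 1.26. Over all probe sets, 4.78% were called higher and 5.18% lower. Against the uninduced line, 7 of the 8 were called lower (3.9% of all probe sets were). Their summed intensity was 12167.4 and 13759.5 in the line at 1 h, 12803.2 and 11879.3 at 4 h, 39563 and 31643.8 uninduced and 5482.4 and 4677.7 in wild type. EXO makes up much of the sum at 4 h, with 9894.6 and 9746.5. It also makes up a large part of the sums at 1 h and in wild type, where its values are given below.

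AT4G27450 had 1658.6 and 1650.9 in the line at 1 h, 376.2 and 195.6 at 4 h, 10333.9 and 8013.8 uninduced and 361.8 and 286.4 in wild type (2.21, SE 0.23, adjusted p = 0.00021). MCCA, a subunit of the leucine-degrading enzyme methylcrotonoyl-CoA carboxylase, had 977.7 and 728.4 at 1 h, 252.7 and 165.3 at 4 h, 4696.2 and 4386.8 uninduced and 166.1 and 242.9 in wild type (1.85, SE 0.21, adjusted p = 0.00040). AT2G32150 had 872.1 and 644.5 at 1 h against 238.1 and 229.1 in wild type and 4351.1 and 4322.2 uninduced (1.51, SE 0.17, adjusted p = 0.00040). In these 3 the 1 h arrays lay between the uninduced arrays above and the other 2 groups below. IVD, isovaleryl-CoA dehydrogenase of the same leucine pathway, differed by 1.12 (adjusted p = 0.0010), MCCB, the partner subunit of MCCA, by 0.71 (adjusted p 0.0443 to 0.0845 over the 4 left-out arrays), and AKINBETA1, a subunit of the energy-sensing kinase SnRK1, by 0.59 (adjusted p 0.0361 to 0.255). EXO, a cell wall protein of brassinosteroid-promoted growth, had 5117.2 and 7404.3 at 1 h against 2815 and 1899.7 in wild type (1.39, adjusted p = 0.021), a call that each left-out array of the 4 ended (adjusted p 0.0531 to 0.200). The eighth gene, AT1G33055, differed by 0.14 (adjusted p = 0.87).

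**Figure D5:**
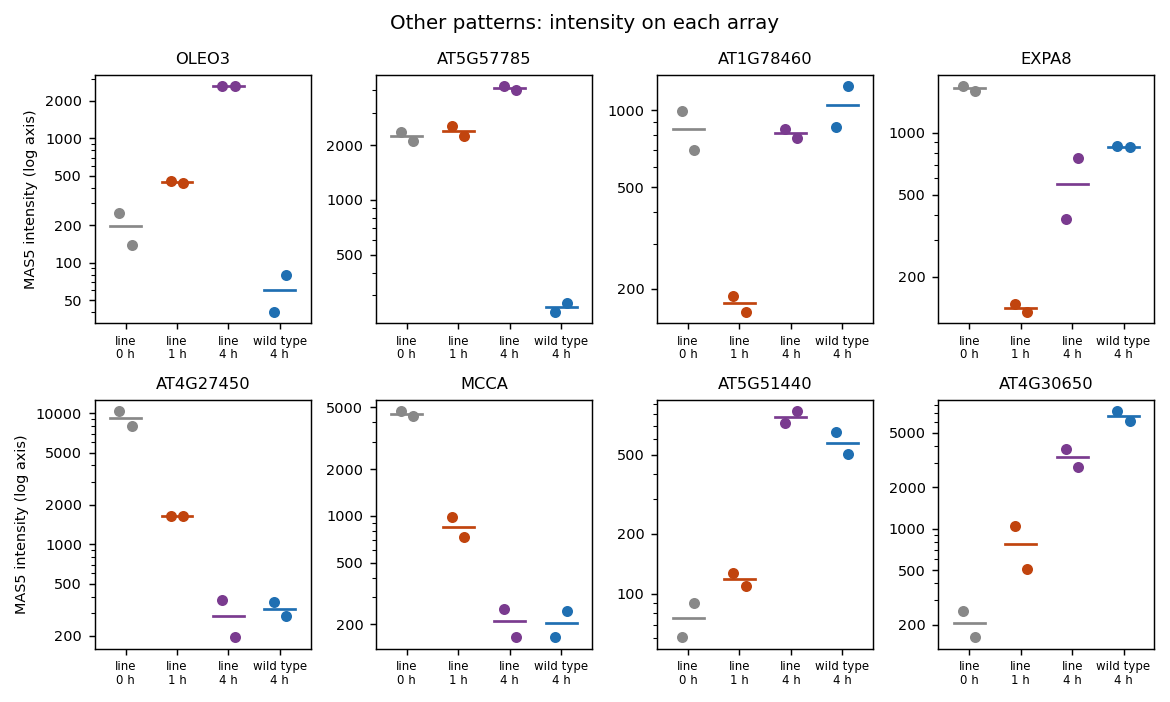
Intensity (log axis) on each array for 8 genes that stand for the other patterns, for the line at 0, 1 and 4 h and wild type at 4 h; points are arrays and lines are means of 2. OLEO3 is partly up at 1 h, AT5G57785 is high in the line at all times, AT1G78460 and EXPA8 are lowest at 1 h, AT4G27450 and MCCA are part-way down, AT5G51440 is not yet up, and AT4G30650 is part-way up.

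Genes not yet fallen at 1 h, the mirror of those not yet risen, numbered 91 probe sets (0.4%), 37 with a single gene. Across these the medians were 905.8 in the line at 1 h and 283.4 at 4 h, against 947.4 uninduced and 306.8 in wild type. AT1G66760 had 565.5 and 447.5 in the line at 1 h, 61.3 and 115.6 at 4 h, 403.9 and 320.6 uninduced and 113.1 and 99.3 in wild type (1.86, SE 0.27, adjusted p = 0.0016). AT3G56290 had 1197.9 and 1318 at 1 h, 344.2 and 506.1 at 4 h, 1024.5 and 563.3 uninduced and 332.2 and 326.9 in wild type (1.80, SE 0.25, adjusted p = 0.0011), and left the class without uninduced replicate 1, when 1 h was called above uninduced (adjusted p = 0.026). ARD4, an acireductone dioxygenase-like protein of methionine recycling, had 2493.1 and 2487 at 1 h and 867.3 and 896.6 at 4 h, against 775.7 and 1020.8 in wild type (1.44, SE 0.19, adjusted p = 0.00075), and stayed in the class in every left-out fit. PUB19 met the definition with 257.7 and 171.8 at 1 h, 62.1 and 14 at 4 h, 68.2 and 96.8 uninduced and 25.8 and 20.6 in wild type. Its 1 h arrays were above both uninduced arrays, though not called so (1.02, adjusted p = 0.13), and its call against wild type (1.91, adjusted p = 0.0069) was lost without wild-type replicate 1 (adjusted p = 0.054), wild-type replicate 2 (0.070) or 1 h replicate 1 (0.064).

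The tissue counts that follow are read beside the 4.78% of all probe sets called higher and the 5.18% called lower. Photosystem and Calvin cycle genes served as markers of green tissue. Of 6 measured, 4 were not called and 2 were called higher at 1 h than in wild type, with a median of 0.32 over the list: LHCB4.2, a light-harvesting antenna protein, with 18864.4 and 18713.8 in the line at 1 h, 10184 and 10027.1 at 4 h, 27657.2 and 29509.9 uninduced and 9621.4 and 10714 in wild type (0.89, SE 0.13, adjusted p = 0.0015), and PRK, phosphoribulokinase (0.56, adjusted p 0.0488 to 0.281 over the 4 left-out arrays). The summed intensity of the list was 158304 and 132987 in the line at 1 h, 108835 and 119918 at 4 h, 183382 and 189494 uninduced and 118184 and 122522 in wild type. Of 4 root-enriched genes, NAI2, of the root and seedling endoplasmic reticulum bodies, was called lower, with 529.5 and 493.3 at 1 h against 1019.5 and 938.2 in wild type (-0.88, SE 0.14, adjusted p = 0.0026), while PYK10 (-0.22), EXPA7 (-0.33) and EXPA18 (0.60) were not. Their sum was 11244.9 and 11193.4 in the line at 1 h, 9457.6 and 8282.8 at 4 h, 10898.9 and 11518.5 uninduced and 13825.6 and 12945.9 in wild type. The part of tissue make-up in the differences above was not tested.

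Calls in the larger families are set here beside the 4.78% of all probe sets called higher and the 5.18% called lower. Of 51 glucosyltransferases (UGT), UGT71C4 was higher, with 1565.5 and 1281.8 in the line at 1 h against 789.6 and 645.6 in wild type (0.95, SE 0.15, adjusted p = 0.0028), and UGT73C1, UGT76E11 and GT72B1 were lower. UGT76E11 had 133.5 and 123.7 against 400.8 and 381.1 (-1.33, adjusted p 0.0256 to 0.0575 over the 4 left-out arrays), and GT72B1 differed by -0.80 (adjusted p 0.0237 to 0.113). Of 14 glutathione S-transferases, GSTU16 (0.80, adjusted p 0.0313 to 0.153) and GSTU18 (0.69, adjusted p 0.0933 to 0.170) were higher and GSTU25 (-0.95, adjusted p 0.0854 to 0.188) lower. Of 22 cytochromes P450, CYP71B26 was lower (-1.32, adjusted p 0.0653 to 0.225), and of 16 SWEET genes, SWEET11, a sucrose transporter, was higher, with 4612 and 4446.9 against 3238.5 and 3375.3 (0.45, adjusted p 0.0492 to 0.141). Of 22 bZIP genes matched by symbol, EEL was the only one called. HYH is not part of that symbol list. The single NAC gene measured, NAC014 (0.64, adjusted p = 0.20), and the homeobox gene PHV, a leaf polarity factor, were not called. PHV had 1034 and 1108.4 in the line at 1 h, 2673.1 and 1777.3 at 4 h and 705.3 and 657.2 in wild type (0.62, adjusted p = 0.11), and was 1.02 above the uninduced line (adjusted p = 0.012).

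The clock gene GI had 775.1 and 691.4 in the line at 1 h, 1202.5 and 1106.8 at 4 h, 406.1 and 540.2 uninduced and 1252.5 and 927 in wild type, and was not called against wild type (-0.53, adjusted p = 0.092) but was below the line at 4 h (-0.63, adjusted p = 0.049). The 4 measured reference genes, TUB6 (-0.18), PEX4 (0.09), AT4G34270 (0.24) and AT2G28390 (0.26), were not called. No gene of the lists of embryonic repressors, gibberellin metabolism, cell division or MYB factors matched by symbol could be measured with a probe set of its own. MYBC1, described above, is not part of that MYB list.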

How the data were processed

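RNA of whole seedlings was measured on 8 ATH1 arrays in 4 groups of 2. The deposited values are MAS5 intensity values, not logged, per the submitters' processing notes, and a version is not given in the sources used here. Every array had the same mean after trimming 2% at each end (500.05), so the deposited intensity values had been scaled. The table has no detection calls.

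From the deposited intensity, log2(intensity + 45) was computed, which understates the change of dim probe sets. The value 45 is close to the 25th percentile of the table. A model with a mean for each of the 4 groups was fitted to all 8 arrays (limma 3.58.1, R 4.3.3; eBayes with trend = TRUE, 4 residual degrees of freedom, median prior 6.79). The test was applied to 22746 probe sets after leaving out 64 controls of 22810, with no filter on low values and Benjamini-Hochberg adjustment within a comparison. The fit was tested on simulated data.

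The platform annotation gives 13513 probe sets (59.4%) a single gene, of which 13484 matched RefSeq genes of TAIR10.1, from which symbols were taken. The annotation supplies no descriptions. For a locus with several probe sets the brightest was used. Genes named in the text were the 8 largest increases and 8 largest decreases called, the members of each class whose smallest defining difference was largest (8 of each kind of rise, 4 of each kind of fall and of high in the uninduced line, 3 not yet risen and 3 not yet fallen), and up to 4 called members of each list, with all members of short lists. Members with a symbol were listed beside these after their values were seen. The members, lists and classes were chosen with earlier results of these data known, the symbol families once annotation coverage was known, and the class low in the uninduced line as a mirror added later. A probe set that met both a "not yet" class and an "in the uninduced line" class was put in the "not yet" class.

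Replicate numbers were checked for pairing: deviations from the group means correlated between -0.0575 and 0.0354 for same-numbered arrays, so the numbers did not pair the samples. Alternatives tried were a filter on low values, pseudocounts of 1 and 150, quantile normalization, no trend, only the 4 arrays compared, a replicate block and each array left out. Promoter motifs were not searched.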

Additional observations from a re-analysis of the deposited data

How the results depend on the processing

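Counts are probe sets. The total called at 1 h against wild type, 2265, was 2885 of 15022 with the filter on low values, 2313 with quantile normalization, 1755 with only the 4 arrays compared and 1174 without the trend (588 higher and 586 lower). The replicate numbers did not pair the samples, and the replicate block gave 2193. With 1 array left out the total was 858 to 1795 (465 to 835 higher, 393 to 960 lower). The line at 1 h against uninduced gave 1207 to 1598. The line at 1 h against 4 h gave 1096 to 1907, and 1207 without the trend. The line against wild type at 4 h gave 249 to 341, and 345 without the trend. The uninduced line against wild type gave 2199 to 2830.

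With 1 array left out the classes held 63 to 108 early rises, 58 to 131 short-lived rises, 38 to 74 high and 31 to 132 low in the uninduced line, 4 to 24 early falls, 11 to 32 short-lived falls, 182 to 303 not yet risen and 63 to 116 not yet fallen. A pseudocount of 150 gave 35 high and 42 low in the uninduced line, 14 early falls, 48 not yet fallen and 146 not yet risen, and a pseudocount of 1 gave 98 high in the uninduced line. Without the trend there were 5 early falls and 10 short-lived falls, and the filter gave 27 short-lived falls. The cause of these shifts was not tested, apart from the fewer arrays or probe sets that a left-out array or the filter brings. This check covered the genes picked by the rules above, not those named only through their symbol. None of the 78 picked genes that were called changed direction under the alternatives run on them. Without the trend, 12 of the 78 lost the call. Among the picked genes not called, AT3G18570, AT2G25890, BZIP53, AGL18, YUC11, JRG21, WRKY53 and AT2G28390 changed sign with 1 array left out. The planned promoter motif count was not run. The number of arrays, 2 a group, limits all calls.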
